A study of Rattus norvegicus with 63 samples.

Results

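Amphetamine at a conditioning dose of 5 mg/kg was compared with saline in the striatum of rats that had no stimulant before conditioning, on 8 of the 63 arrays of the series. The 3 amphetamine arrays (replicates 1 to 3) and the 5 saline arrays (replicates 1 to 5) were taken by their labels, as the naive striatal groups, and every array of both groups was used. All 8 arrays came from male Wistar rats that were 4 weeks old on arrival and 6 weeks old when intraperitoneal saline injections began, given 2 times a day for 7 days. The amphetamine rats were then conditioned with amphetamine at 5 mg/kg in a place preference test and self-administered 0.1 mg/kg of amphetamine per infusion. The saline rats were conditioned with saline and self-administered 0.1 ml of saline per infusion. The rostral caudate putamen and the nucleus accumbens were dissected together on the day after the final session, in rats chosen for the most robust self-administration. The labels speak of pooled RNA but count about as many rats as arrays. The p-values thus measure the spread between arrays, which may in part be technical. That spread was estimated over 29 striatal arrays, not these 8 alone. They include other stimulant groups and a cohort of saline rats and rats given a stimulant before conditioning.

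Amphetamine enters dopamine terminals and drives dopamine out into the striatum. There, dopamine acts on projection neurons that carry D1 receptors with the peptides dynorphin and substance P, or D2 receptors with enkephalin. D1 receptor signalling through cyclic AMP induces activity genes such as Fos, Arc and Egr1 within an hour and the dynorphin gene Pdyn more slowly, and the striatum also runs a circadian clock.

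The study's saline arrays fall into separate array batches, and this bears on every comparison below. The hybridisation control BioB, a spike added before hybridisation, had a mean log2 signal of 6.03, 6.32 and 6.34 on the amphetamine arrays, 6.63 and 6.50 on saline 4 and 5, and 9.91, 9.90 and 9.75 on saline 1, 2 and 3. The log2 ratio of the 3' to the 5' probe sets of Gapdh, a measure of RNA or label length, was 0.917 to 1.01 on the amphetamine arrays, 1.14 to 1.16 on saline 4 and 5, and 0.528 to 0.574 on saline 1 to 3. Saline 4 and 5 thus shared the low BioB signal and the higher 3' to 5' ratios with the amphetamine arrays. Across genes, the correlation of log2 signal was 0.986 to 0.99 among the amphetamine arrays, 0.979 to 0.987 between amphetamine and saline 4 and 5, and 0.965 to 0.976 between amphetamine and saline 1 to 3. All 8 arrays carried a striatal profile: 8 striatal markers exceeded 4 cortical markers by 4.93 to 7.17 in mean log2 signal, against -1.18 to 1.15 on the 31 prefrontal arrays.

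**Figure D1:**
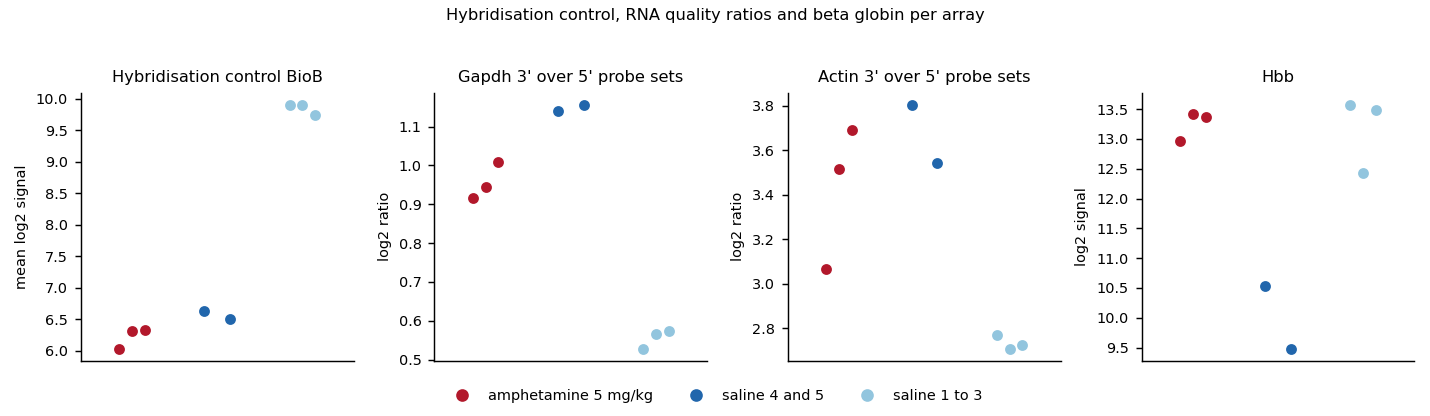
Mean log2 signal of the hybridisation control BioB, log2 ratios of the 3' to the 5' probe sets of Gapdh and actin, and log2 signal of beta globin (Hbb), with 1 point per array for the 3 amphetamine arrays (left), saline 4 and 5 (middle) and saline 1 to 3 (right). BioB was 6.03 to 6.34 on the amphetamine arrays, 6.50 to 6.63 on saline 4 and 5 and 9.75 to 9.91 on saline 1 to 3, whereas Hbb was low on saline 4 and 5 alone.

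Against all 5 saline arrays, 22 of 8531 genes passed an adjusted p of 0.05 (0.258%), 6 higher and 16 lower in amphetamine striatum. Those that rose included the heparan sulfate 3-O-sulfotransferase Hs3st2, the retinoic acid hydroxylase Cyp26b1 and the clock repressor Nr1d2. Those that fell included the cilia factor Foxj1, the synaptic activity gene Arc and the G protein subunit Gng7. Against saline 4 and 5 alone, 1 gene passed (0.0117%), the beta globin gene Hbb, and none of the 22 genes did, with adjusted p of 0.734 to 0.872. Here and below, values are log2 of the array signal, differences are amphetamine minus saline with the standard error of the fit, and adjusted p comes from limma with Benjamini-Hochberg adjustment over all genes tested. An array measures RNA per amount of tissue RNA, so fewer cells of a type and less RNA per cell cannot be told apart.

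The number of genes that passed turned on which saline arrays were used. With any 1 of amphetamine 1 to 3 or saline 1 to 3 left out, 0 genes passed against the remaining arrays, while 133 passed without saline 4 and 281 without saline 5. It also turned on the arrays that gave the spread: 3 genes passed with naive arrays only and 0 with the compared groups only. An unadjusted p under 0.05, which chance alone gives for about 5% of the genes tested, was met by 1430 genes against saline 1 to 5. Against saline 4 and 5 it was met by 483, which is near that share. Against saline 1 to 3, which lie in the other array batch, 1001 genes passed (11.7%), 587 higher and 414 lower in amphetamine arrays. Saline 4 and 5 themselves differed from saline 1 to 3 in 332 genes (3.89%), 199 higher and 133 lower. The 3 amphetamine arrays lay all above the 5 saline arrays for 519 genes and all below them for 422, together 11% of the genes tested. Within the batch the test has fewer arrays: the median standard error of a log2 difference was 0.162 against saline 4 and 5, compared with 0.134 against saline 1 to 5.

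Hs3st2, whose enzyme adds a rare sulfate group to heparan sulfate chains and is found mainly in brain, showed the largest rise. Its log2 signal was 8.94, 8.64 and 9.65 on the amphetamine arrays, against 7.98 and 7.69 on saline 4 and 5 and 7.84, 7.58 and 6.41 on saline 1 to 3. Every amphetamine array lay above every saline array. The difference was 1.58 ± 0.30 against saline 1 to 5 (2.98-fold, adjusted p = 0.0312) and 1.24 ± 0.36 against saline 4 and 5 (adjusted p = 0.734). Hs3st2 was also among the genes with the smallest p against methylphenidate at 5 mg/kg (1.47 ± 0.33, adjusted p = 0.523). The methylphenidate arrays share the amphetamine batch and read 7.43, 8.14 and 7.24.

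The 250 bases before the annotated start of Hs3st2 are shown because they were the sole window among the genes that passed to hold the full cyclic AMP response element (letters TGACGTCA, in capitals). They lie at chr1:185387213-185387462 on the plus strand of the rat build GRCr8, from RefSeq, and the element starts 63 bases before the gene start.
Hs3st2: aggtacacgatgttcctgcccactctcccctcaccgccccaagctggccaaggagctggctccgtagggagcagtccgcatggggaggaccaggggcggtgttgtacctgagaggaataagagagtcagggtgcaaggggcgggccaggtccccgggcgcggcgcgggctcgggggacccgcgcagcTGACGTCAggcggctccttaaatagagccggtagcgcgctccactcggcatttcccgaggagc
Of the 22 genes, 16 had a window in the table, and 1 of these 16 held the element on either strand, beside 1.59% of all 33469 windows of this length. The shorter motif TGACG, which the full element contains, stood in the windows of 5 of the 16 genes (Calr, Hs3st2, Nsrp1, Oaf and Zdhhc6) and in 18.2% of all windows. The clock E-box CACGTG stood in 0 of the 16 and in 5.59% of all windows. These matches describe letters, not binding.

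Cyp26b1, which clears retinoic acid, read 8.64, 8.62 and 8.69 on the amphetamine arrays, against 7.93 and 7.66 on saline 4 and 5 and 7.24, 6.87 and 7.40 on saline 1 to 3. The groups did not overlap, and saline 4 and 5 stood nearer to the amphetamine arrays than saline 1 to 3 did. The difference was 1.23 ± 0.25 against saline 1 to 5 (2.34-fold, adjusted p = 0.0398) and 0.85 ± 0.29 against saline 4 and 5 (adjusted p = 0.804). A second probe set of Cyp26b1 gave 1.31 against saline 1 to 5 and 1.40 against saline 4 and 5.

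Both of these genes had higher signal in prefrontal cortex than in striatum: on the prefrontal saline arrays Hs3st2 read 9.92 to 10.32 and Cyp26b1 10.43 to 10.92. Cortical markers were likewise higher on the amphetamine arrays. The vesicular glutamate transporter Slc17a7, found in cortical pyramidal neurons, read 8.20, 9.09 and 8.64 on the amphetamine arrays, against 7.70 and 8.04 on saline 4 and 5 and 7.08, 7.31 and 7.34 on saline 1 to 3. Across the 9 cortical markers tested, the mean log2 signal was 10.09 to 10.42 on the amphetamine arrays, 10.07 to 10.13 on saline 4 and 5, 9.33 to 9.45 on saline 1 to 3, and at least 11.57 on the prefrontal saline arrays. Of those 9, 8 were higher in amphetamine arrays against saline 1 to 5, with a median difference of 0.90 beside 0.01 over all genes, and the median was 0.13 against saline 4 and 5. None of the 9 passed the test in either comparison, and Tbr1 and Neurod6 were not among the genes tested. The part of cortical RNA in the Hs3st2 and Cyp26b1 differences was not tested.

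Nr1d2 encodes REV-ERB beta, a heme-binding repressor of the circadian clock, and had the smallest standard error of the genes that rose. It read 11.89, 11.86 and 11.79 on the amphetamine arrays, against 11.54 and 11.53 on saline 4 and 5 and 11.46, 11.44 and 11.44 on saline 1 to 3. The saline arrays of both batches lay close together, and all amphetamine arrays stood above them. The difference was 0.37 ± 0.07 against saline 1 to 5 (1.29-fold, adjusted p = 0.0317) and 0.32 ± 0.09 against saline 4 and 5 (adjusted p = 0.734). Another of its probe sets gave 0.30 against saline 1 to 5 (unadjusted p = 0.00522) and 0.14 against saline 4 and 5. The methylphenidate arrays read 11.70 to 11.88, in the range of the amphetamine arrays, and methamphetamine at 5 mg/kg read 11.52 to 11.62.

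Other clock genes did not pass. Per2, a core repressor of the clock, read 10.11, 10.12 and 10.18 on the amphetamine arrays, against 9.42 and 9.54 on saline 4 and 5 and 9.69, 9.84 and 9.79 on saline 1 to 3. Its groups did not overlap either, with a difference of 0.48 ± 0.19 against saline 1 to 5 (adjusted p = 0.203) and 0.66 ± 0.24 against saline 4 and 5 (adjusted p = 0.823). Dbp, a clock output factor, read 11.42, 11.38 and 11.05 on the amphetamine arrays, 10.82 and 10.52 on saline 4 and 5, and 11.43, 11.38 and 11.12 on saline 1 to 3. The amphetamine arrays were above the saline arrays of their own batch and level with those of the other batch, so the difference was 0.23 ± 0.15 against all 5 (adjusted p = 0.463) and 0.61 ± 0.14 against saline 4 and 5 (adjusted p = 0.734). Per1 had a difference of -0.28 ± 0.20 (adjusted p = 0.483). Of 19 clock genes tested, 1 rose and 0 fell against saline 1 to 5, with a median of 0.05 beside 0.01 over all genes. The time of day at which tissue was taken is not in the labels used here, and its part was not tested.

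Of the remaining genes that rose, Epha3, a receptor tyrosine kinase for ephrin-A guidance ligands, read 7.74, 7.99 and 8.06 on the amphetamine arrays, against 7.56 and 7.57 on saline 4 and 5 and 7.08, 7.16 and 6.93 on saline 1 to 3. The difference was 0.67 ± 0.15 against saline 1 to 5 (adjusted p = 0.04997) and 0.37 ± 0.15 against saline 4 and 5 (adjusted p = 0.872), and its 2 other probe sets gave 0.41 and -0.20 against saline 1 to 5, neither past an unadjusted p of 0.05. Of 33 axon guidance genes tested, Epha3 alone rose and 0 fell. The zinc finger gene Zik1 read 10.06 to 10.24 on the amphetamine arrays, 9.82 to 9.86 on saline 4 and 5 and 9.25 to 9.36 on saline 1 to 3, a difference of 0.62 ± 0.13 (adjusted p = 0.0422). The kinase gene Stk32c read 11.58 to 11.80 on the amphetamine arrays, 11.36 to 11.61 on saline 4 and 5 and 10.94 to 11.16 on saline 1 to 3, a difference of 0.47 ± 0.10 (adjusted p = 0.04997). For Zik1 and Stk32c, saline 4 and 5 were themselves above saline 1 to 3, by 0.53 ± 0.13 (adjusted p = 0.0193) and 0.43 ± 0.10 (adjusted p = 0.0179). Stk32c on the lowest amphetamine array lay below one of saline 4 and 5, so its groups overlapped.

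**Figure D2:**
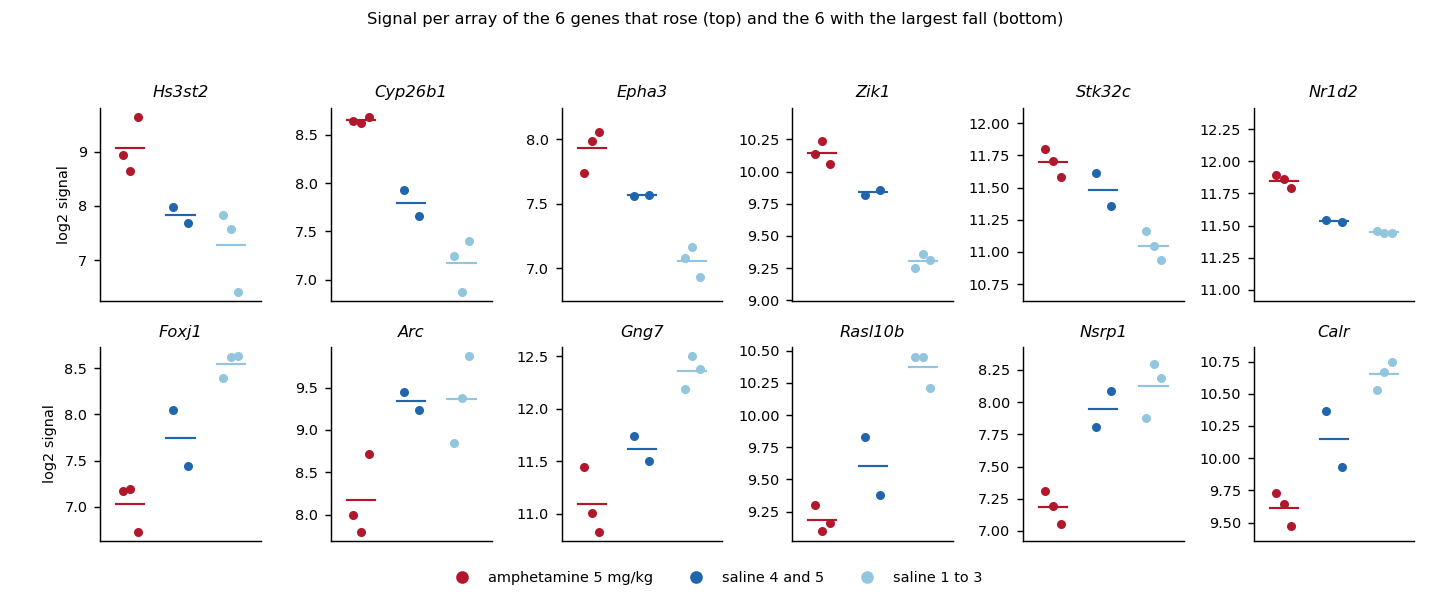
Log2 signal per array of the 6 genes that rose and the 6 with the largest fall among the genes that passed against saline 1 to 5, for amphetamine (left), saline 4 and 5 (middle) and saline 1 to 3 (right). Bars are group means, and each panel has its own axis. Hs3st2, Cyp26b1 and Nr1d2 separate amphetamine from all saline arrays, and in most panels saline 4 and 5 lie between the amphetamine arrays and saline 1 to 3.

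Arc, whose protein regulates AMPA receptors at active synapses, read 8.0, 7.80 and 8.72 on the amphetamine arrays, against 9.45 and 9.24 on saline 4 and 5 and 8.85, 9.38 and 9.87 on saline 1 to 3. All amphetamine arrays lay below all saline arrays, and the saline batches had like levels. The difference was -1.18 ± 0.26 against saline 1 to 5 (2.27-fold lower, adjusted p = 0.04997) and -1.17 ± 0.34 against saline 4 and 5 (adjusted p = 0.734). Saline 4 and 5 differed from saline 1 to 3 by -0.02 ± 0.34.

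The related activity genes Fos, Nr4a1 and Egr1 gave lower means without passing. Fos read 8.48, 8.94 and 9.67 on the amphetamine arrays, against 10.05 and 10.06 on saline 4 and 5 and 8.89, 10.32 and 10.45 on saline 1 to 3. Saline 1 was low and overlapped the amphetamine arrays, and the difference was -0.92 ± 0.36 (adjusted p = 0.201), or -1.02 ± 0.47 against saline 4 and 5 (adjusted p = 0.872). Nr4a1, an orphan nuclear receptor induced by activity, read 8.28, 8.46 and 9.12 on the amphetamine arrays, against 9.21 and 9.22 on saline 4 and 5 and 8.85, 9.26 and 9.67 on saline 1 to 3 (difference -0.62 ± 0.21, adjusted p = 0.156). Egr1 read 12.54, 12.43 and 12.78 on the amphetamine arrays, against 12.77 to 13.08 on saline 1 to 5 (difference -0.28 ± 0.13, adjusted p = 0.289). In each of Fos, Nr4a1 and Egr1, amphetamine replicate 3 was the highest of the 3 amphetamine arrays, as it was for Arc.

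The 250 bases before the start of Nr4a1 are shown because the short cyclic AMP motif (TGACG on either strand, in capitals) recurs in them. The window lies at chr7:134259888-134260137 on the plus strand of GRCr8, from RefSeq, and holds 4 such motifs, between 246 and 53 bases before the gene start.
Nr4a1: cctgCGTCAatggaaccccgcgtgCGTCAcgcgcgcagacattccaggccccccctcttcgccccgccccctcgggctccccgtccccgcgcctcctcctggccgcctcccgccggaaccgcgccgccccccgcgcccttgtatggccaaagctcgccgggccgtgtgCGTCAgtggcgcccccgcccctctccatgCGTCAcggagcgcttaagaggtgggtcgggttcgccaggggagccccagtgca
Arc and Fos had no window in the table.

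The lower activity gene levels were not general to the list. Of 31 immediate early and activity genes tested, Arc alone fell and 0 rose. The median difference was -0.03 against saline 1 to 5 and -0.01 against saline 4 and 5, beside 0.01 in both cases over all genes. Against saline 1 to 5, 14 of the 31 had higher and 17 lower means. All amphetamine arrays lay above all saline arrays for 4 of the 31 and below them for 2, beside 519 and 422 of all 8531 genes. Homer1, another synaptic activity gene, differed by 0.05 ± 0.11 (adjusted p = 0.855), and Junb was below the signal filter. Other probe sets of Homer1 gave -0.109 to 0.329 against saline 1 to 5, the highest with an unadjusted p of 0.0477. The methylphenidate arrays of the same batch were also low, with Arc at 7.69 to 8.15, Fos at 8.14 to 8.86 and Nr4a1 at 7.98 to 8.41, and amphetamine minus methylphenidate was 0.26 ± 0.30 for Arc and 0.58 ± 0.42 for Fos (adjusted p = 0.999 each). After amphetamine at 1.25 mg/kg, whose arrays lie in the batch of saline 1 to 3, Arc read 8.54 to 9.58, and after methamphetamine at 5 mg/kg 8.73 to 9.42.

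**Figure D3:**
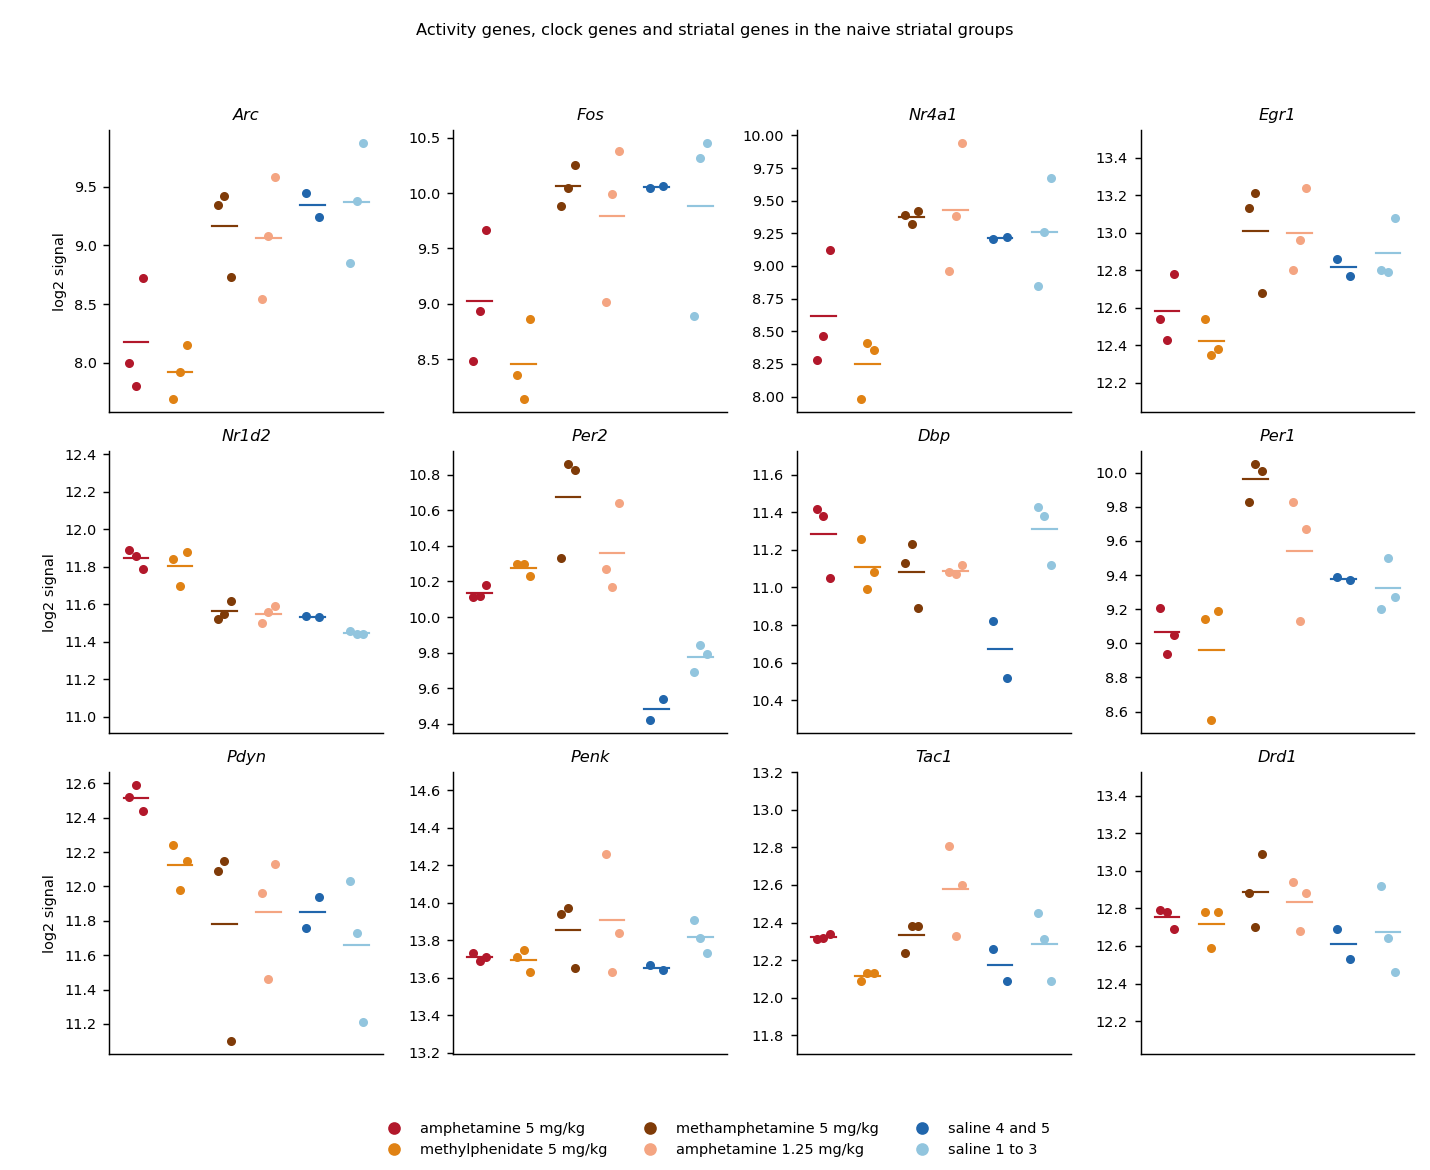
Log2 signal per array of activity genes (top row), clock genes (middle row) and peptide and receptor genes (bottom row) in the naive striatum. Groups run from left to right as amphetamine 5 mg/kg, methylphenidate 5 mg/kg, methamphetamine 5 mg/kg, amphetamine 1.25 mg/kg, saline 4 and 5, and saline 1 to 3; bars are group means and each panel has its own axis. Arc, Fos and Nr4a1 are low in the amphetamine 5 mg/kg and methylphenidate groups, and Pdyn is highest after amphetamine 5 mg/kg.

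Pdyn, which encodes prodynorphin, the source of the kappa opioid peptides of D1 receptor neurons, had a larger mean than saline but did not pass. It read 12.52, 12.59 and 12.44 on the amphetamine arrays, against 11.76 and 11.94 on saline 4 and 5 and 12.03, 11.73 and 11.21 on saline 1 to 3. The groups did not overlap. The difference was 0.79 ± 0.21 against saline 1 to 5 (1.72-fold, adjusted p = 0.0767) and 0.67 ± 0.26 against saline 4 and 5 (adjusted p = 0.823). A second, dimmer probe set of Pdyn gave 0.12 and 0.87 in those comparisons. Amphetamine at 1.25 mg/kg gave 11.46 to 12.13 and methylphenidate at 5 mg/kg 11.98 to 12.24.

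Penk, Tac1 and Cartpt overlapped with the saline arrays. Penk (enkephalin) read 13.69 to 13.73 on the amphetamine arrays, against 13.64 to 13.91 on saline 1 to 5, with a difference of -0.04 ± 0.11 (95% interval -0.26 to 0.17). Tac1 (substance P) read 12.31 to 12.34, against 12.09 to 12.45 (0.08 ± 0.11, interval -0.14 to 0.31). Cartpt, the CART peptide gene, read 9.83 to 10.33, against 9.01 to 10.61 (0.30 ± 0.28), with saline 4 and 5 above saline 1 to 3. Over the 17 neuropeptide genes tested, 0 passed and 13 were higher in amphetamine arrays, beside 4464 of all 8531 genes. Their median difference was 0.16, or 0.18 against saline 4 and 5, beside 0.012 and 0.005 over all genes. Of the 17, 5 had all amphetamine arrays above all saline arrays and 1 had them all below. Over all 8531 genes, 519 lay above and 422 below, together 11%.

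Besides Pdyn, the 5 were Sst, Npy, Chgb and Scg5. Sst, the somatostatin gene of striatal interneurons, read 10.02, 10.58 and 10.39 on the amphetamine arrays, against 9.73 and 9.59 on saline 4 and 5 and 9.86, 9.78 and 9.37 on saline 1 to 3. Its difference was 0.67 ± 0.20 against saline 1 to 5 (adjusted p = 0.109) and 0.67 ± 0.25 against saline 4 and 5 (adjusted p = 0.823), alike in both. Npy (neuropeptide Y), made by the same class of interneuron, read 11.55, 11.49 and 11.47 on the amphetamine arrays, against 11.19 and 11.19 on saline 4 and 5 and 11.27 to 11.36 on saline 1 to 3 (0.24 ± 0.09, adjusted p = 0.169). The granin gene Chgb and Scg5, which encodes a chaperone of a prohormone convertase, gave 0.47 ± 0.19 (adjusted p = 0.21) and 0.18 ± 0.10 (adjusted p = 0.366). Nts, the neurotensin gene, was the one below: it read 9.07, 9.03 and 9.20 on the amphetamine arrays, against 9.72 and 9.54 on saline 4 and 5 and 9.81, 9.75 and 9.38 on saline 1 to 3 (-0.54 ± 0.19, adjusted p = 0.16, and -0.53 ± 0.24 against saline 4 and 5).

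No dopamine or adenosine receptor gene passed. Drd1, the D1 receptor, read 12.79, 12.78 and 12.69 on the amphetamine arrays, against 12.46 to 12.92 on saline 1 to 5 (0.11 ± 0.10, interval -0.11 to 0.32). Drd2 read 11.64 to 11.77, against 11.62 to 12.04 (-0.11 ± 0.12, interval -0.36 to 0.14), and the adenosine receptor gene Adora2a 12.20 to 12.40, against 12.12 to 12.47 (0.02 ± 0.10, interval -0.19 to 0.24). A dimmer probe set of Adora2a gave -0.69 ± 0.27 against saline 1 to 5 (unadjusted p = 0.0177) and 0.12 against saline 4 and 5, and a dimmer one of Drd1 gave 0.38 ± 0.19 and 0.33. Ppp1r1b, which encodes DARPP-32, the phosphatase inhibitor of dopamine signalling, read 12.40 to 12.59, against 12.32 and 12.60 on saline 4 and 5 and 12.70 to 13.03 on saline 1 to 3. Its difference was -0.23 ± 0.11 against saline 1 to 5 (adjusted p = 0.3) and 0.03 ± 0.11 against saline 4 and 5.

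Gng7 was the one gene of this signalling list of 27 that passed. It encodes the G protein gamma subunit with which the striatal stimulatory G protein couples D1 and adenosine receptors to adenylyl cyclase. It read 11.45, 11.01 and 10.83 on the amphetamine arrays, against 11.74 and 11.50 on saline 4 and 5 and 12.19, 12.50 and 12.38 on saline 1 to 3. The amphetamine arrays were lowest and saline 4 and 5 lay just above them. The difference was -0.96 ± 0.20 against saline 1 to 5 (1.95-fold lower, adjusted p = 0.0398) and -0.52 ± 0.20 against saline 4 and 5 (adjusted p = 0.823), while saline 4 and 5 were lower than saline 1 to 3 by a difference of -0.74 ± 0.20 (adjusted p = 0.0408). Methylphenidate arrays read 10.88 to 11.22. Gnai2, an inhibitory G protein alpha subunit, followed the same order, with 10.15 to 10.23 on the amphetamine arrays, 10.51 and 10.60 on saline 4 and 5 and 10.80 to 11.25 on saline 1 to 3 (-0.68 ± 0.15, adjusted p = 0.04997). The median of the list was -0.10 against saline 1 to 5 and 0.03 against saline 4 and 5.

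Foxj1, the transcription factor that switches on motile cilia and marks ependymal cells, had the largest fall. It read 7.17, 7.19 and 6.73 on the amphetamine arrays, against 8.05 and 7.44 on saline 4 and 5 and 8.39, 8.62 and 8.63 on saline 1 to 3. The groups did not overlap, but saline 5 lay close to the amphetamine arrays. The difference was -1.19 ± 0.23 against saline 1 to 5 (2.29-fold lower, adjusted p = 0.0317) and -0.72 ± 0.25 against saline 4 and 5 (adjusted p = 0.804).

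Some other ciliary genes had lower means. Spa17, whose protein is found in sperm tails and cilia, read 8.03 to 8.20 on the amphetamine arrays, 8.38 and 8.63 on saline 4 and 5 and 8.98 to 9.04 on saline 1 to 3 (-0.69 ± 0.15, adjusted p = 0.0462). In the list of choroid plexus and ependymal markers, 6 genes were tested, Foxj1 alone fell, and the median was -0.79, or -0.58 against saline 4 and 5. Of its members, Tmem212 and Dynlrb2, chosen after their values were seen, read 8.42 to 8.86 and 9.45 to 9.81 on the amphetamine arrays, against 8.95 to 9.71 and 9.96 to 10.59 on saline 1 to 5, without overlap but without passing. The choroid plexus gene Ttr read 10.69 to 11.55 on the amphetamine arrays and 9.03 to 10.91 on saline 1 to 5. The list's mean log2 signal was 9.37 to 9.49 on the amphetamine arrays, 9.55 to 10.02 on saline 4 and 5 and 9.69 to 10.12 on saline 1 to 3. The amount of ventricular wall in each dissection was not measured, and its part in the Foxj1 and Spa17 differences was not tested.

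Calr, which encodes the calcium-binding chaperone calreticulin of the endoplasmic reticulum, read 9.73, 9.64 and 9.47 on the amphetamine arrays, against 10.37 and 9.93 on saline 4 and 5 and 10.53, 10.67 and 10.75 on saline 1 to 3. The difference was -0.84 ± 0.15 against saline 1 to 5 (adjusted p = 0.0312) and -0.54 ± 0.17 against saline 4 and 5 (adjusted p = 0.751). It was the sole gene to fall among 23 chaperone and stress genes of the endoplasmic reticulum, 0 of which rose, and their median was 0.03.

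On the probe sets tested, the splicing regulator Nsrp1 and the developmental transcription factor Sox4 had like differences from both saline batches. Nsrp1 read 7.31, 7.19 and 7.05 on the amphetamine arrays, against 7.81 and 8.09 on saline 4 and 5 and 7.88, 8.30 and 8.19 on saline 1 to 3 (-0.87 ± 0.16, adjusted p = 0.0312, and -0.77 ± 0.20 against saline 4 and 5, adjusted p = 0.734). Its methylphenidate arrays read 6.87 to 7.25. Its other 2 probe sets gave smaller differences, -0.36 and -0.30 against saline 1 to 5 and -0.21 and -0.12 against saline 4 and 5. Sox4 read 10.53, 10.70 and 10.68 on the amphetamine arrays, against 11.10 and 11.02 on saline 4 and 5 and 11.03, 10.99 and 11.19 on saline 1 to 3 (-0.43 ± 0.09, adjusted p = 0.044, and -0.42 ± 0.11 against saline 4 and 5, adjusted p = 0.734). The brightest of its other 6 probe sets gave -0.475 against saline 1 to 5 and -0.21 against saline 4 and 5, and the remaining 5 gave -0.999 to 0.89 against saline 1 to 5, none past an unadjusted p of 0.05. C13h1orf115 gave -0.67 ± 0.15 against saline 1 to 5 (adjusted p = 0.04997) and -0.68 ± 0.19 against saline 4 and 5. For Arc, Nsrp1, Sox4 and C13h1orf115, saline 4 and 5 minus saline 1 to 3 was -0.17 to 0.01, and none of these 4 differences passed.

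The remaining genes that fell were smaller in effect against saline 4 and 5 than against all 5 arrays. Rasl10b, a small GTPase, read 9.10 to 9.30 on the amphetamine arrays, 9.38 and 9.83 on saline 4 and 5 and 10.21 to 10.45 on saline 1 to 3 (-0.88 ± 0.19, adjusted p = 0.044, and -0.42 ± 0.18 against saline 4 and 5). Dmpk, the kinase gene mutated in human myotonic dystrophy, read 7.85 to 8.02 on the amphetamine arrays, 8.32 and 8.46 on saline 4 and 5 and 8.65 to 8.94 on saline 1 to 3 (-0.68 ± 0.13, adjusted p = 0.0312). Taf6, a subunit of the basal transcription factor TFIID, gave -0.66 ± 0.13 (adjusted p = 0.0317), and another of its probe sets -0.63. Further probe sets of Abhd14b and Rasl10b gave -0.71 and -0.53 against saline 1 to 5 but 0.09 and -0.13 against saline 4 and 5, and a very dim one of Rasl10b gave 0.34. The hydrolase genes Abhd14b and Abhd4, the palmitoyltransferase gene Zdhhc6 and Oaf gave -0.56 ± 0.12, -0.47 ± 0.11, -0.48 ± 0.10 and -0.48 ± 0.11, with adjusted p of 0.0422 to 0.04997. Against saline 4 and 5 these 6 genes differed by -0.48 to -0.32, none with an adjusted p under 0.751.

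**Figure D4:**
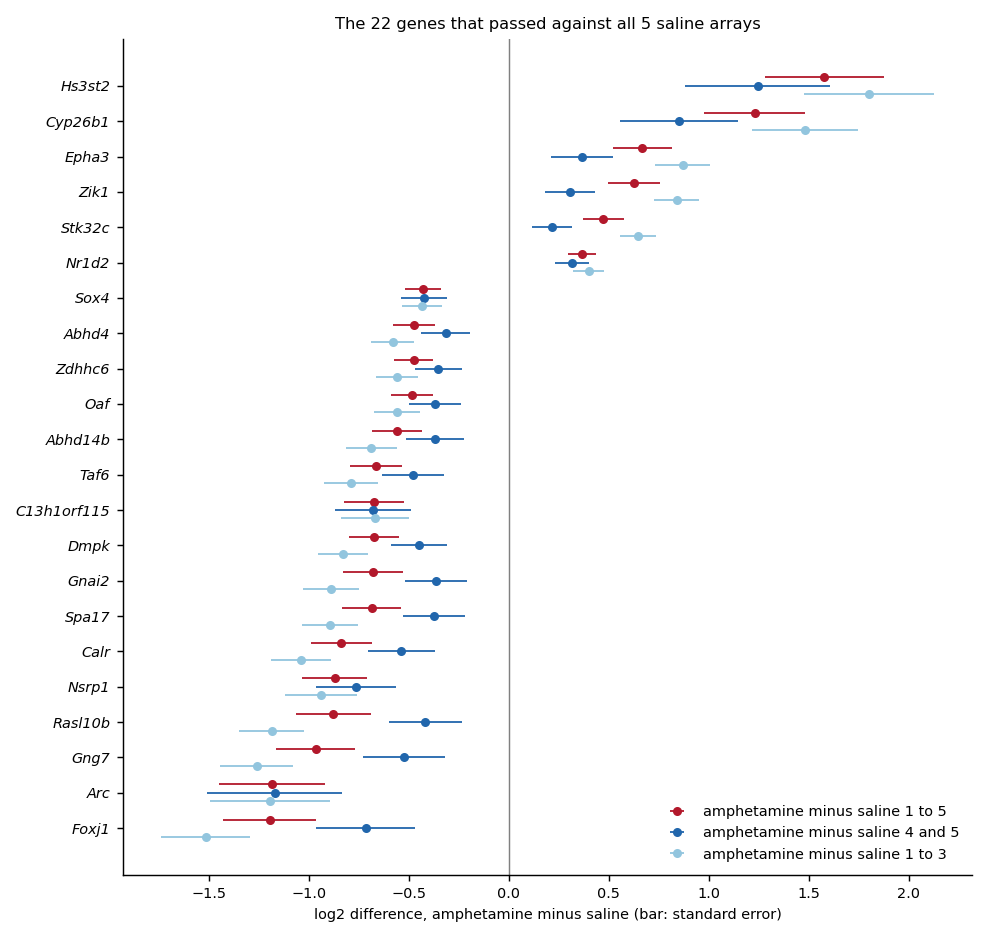
Log2 difference of amphetamine minus saline, with its standard error, for the 22 genes that passed against saline 1 to 5, shown against saline 1 to 5, saline 4 and 5, and saline 1 to 3. The comparisons share the amphetamine arrays and part of the saline arrays. Arc, Nsrp1, Sox4, C13h1orf115 and Nr1d2 have like differences from both saline batches, while Gng7, Rasl10b, Zik1 and Stk32c have their largest differences from saline 1 to 3.

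Hbb, the beta globin gene of red blood cells, was the one gene that passed within the batch. It read 12.97, 13.41 and 13.37 on the amphetamine arrays, against 10.54 and 9.48 on saline 4 and 5 and 13.57, 12.43 and 13.48 on saline 1 to 3. Saline 4 and 5 lay below every other naive striatal array given here, and the amphetamine arrays were level with saline 1 to 3 and with the methylphenidate arrays (13.40 to 13.86). The difference was 3.25 ± 0.39 against saline 4 and 5 (9.48-fold, adjusted p = 8.75e-05) and 1.35 ± 0.58 against saline 1 to 5 (adjusted p = 0.232). Without saline 5, 0 genes passed within the batch, and without saline 4, 3 did. Prefrontal saline 4 and 5 were low as well, at 10.19 and 9.22, against 12.97 to 13.31 on the prefrontal amphetamine arrays.

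The next genes by p within the batch did not pass. Among those higher in amphetamine arrays were Qdpr, which regenerates the cofactor for dopamine synthesis, at 12.32, 12.59 and 12.12 against 11.84 and 11.59 on saline 4 and 5 (0.63 ± 0.16), and Hspa9, a mitochondrial chaperone, at 11.33 to 11.37 against 10.94 and 11.09 (0.33 ± 0.09). Dimmer probe sets of Hspa9 gave 0.40, 1.84 and -1.33 against saline 4 and 5 (unadjusted p = 0.0478, 0.0618 and 0.0119), the last in the other direction. Nat8f5 read 8.06 to 8.86 against 7.54 and 7.91 (0.77 ± 0.19). Lower in amphetamine arrays were Hey2, a Notch target, at 9.54 to 9.64 against 9.98 and 10.15 (-0.47 ± 0.12), Fam13b at 9.70 to 9.79 against 10.07 and 10.18 (-0.39 ± 0.10), and Ube3al1 at 9.51 to 9.93 against 10.05 and 10.73 (-0.73 ± 0.19). All 6 had an adjusted p of 0.734.

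Across the other gene lists 0 genes passed, and several medians depended on which saline arrays were used. Markers of thalamus, septum and hypothalamus had a median of -0.13 against saline 1 to 5 and -0.63 against saline 4 and 5 over 6 genes. On this list saline 5 was high: Slc17a6, the vesicular glutamate transporter of the thalamus, read 7.94, 8.45 and 8.75 on the amphetamine arrays, against 7.54 and 10.63 on saline 4 and 5 and 6.82 to 7.47 on saline 1 to 3. Pericyte and smooth muscle markers had medians of 0.11 and 0.36 over 5 genes, endothelial markers -0.03 and 0.25 over 18, and microglia markers -0.14 and 0.08 over 16. Striatal interneuron markers had medians of 0.30 and 0.0 over 7 genes. Glucocorticoid-responsive genes had a median of 0.07 against saline 1 to 5 and -0.35 against saline 4 and 5, where 2 of 21 were higher in amphetamine arrays. Saline 4 and 5 exceeded saline 1 to 3 by a median of 0.46 on this list, and all 21 genes were higher there. Fkbp5, a glucocorticoid target, read 9.94 to 10.11 on the amphetamine arrays, 9.90 and 10.39 on saline 4 and 5 and 9.73 to 9.93 on saline 1 to 3 (0.07 ± 0.17). Of 38 cytosolic ribosomal protein genes, 1 was higher in amphetamine arrays against saline 1 to 5 and 4 against saline 4 and 5, with medians of -0.15 and -0.14 and 0 that passed. Over all 8531 genes tested, 4464 were higher against saline 1 to 5 and 4362 against saline 4 and 5. Astrocyte markers had medians of -0.19 and -0.14 over 21 genes, also with 0 passing. Striatal projection neuron markers had medians of -0.11 and -0.01 over 22 genes.

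**Figure D5:**
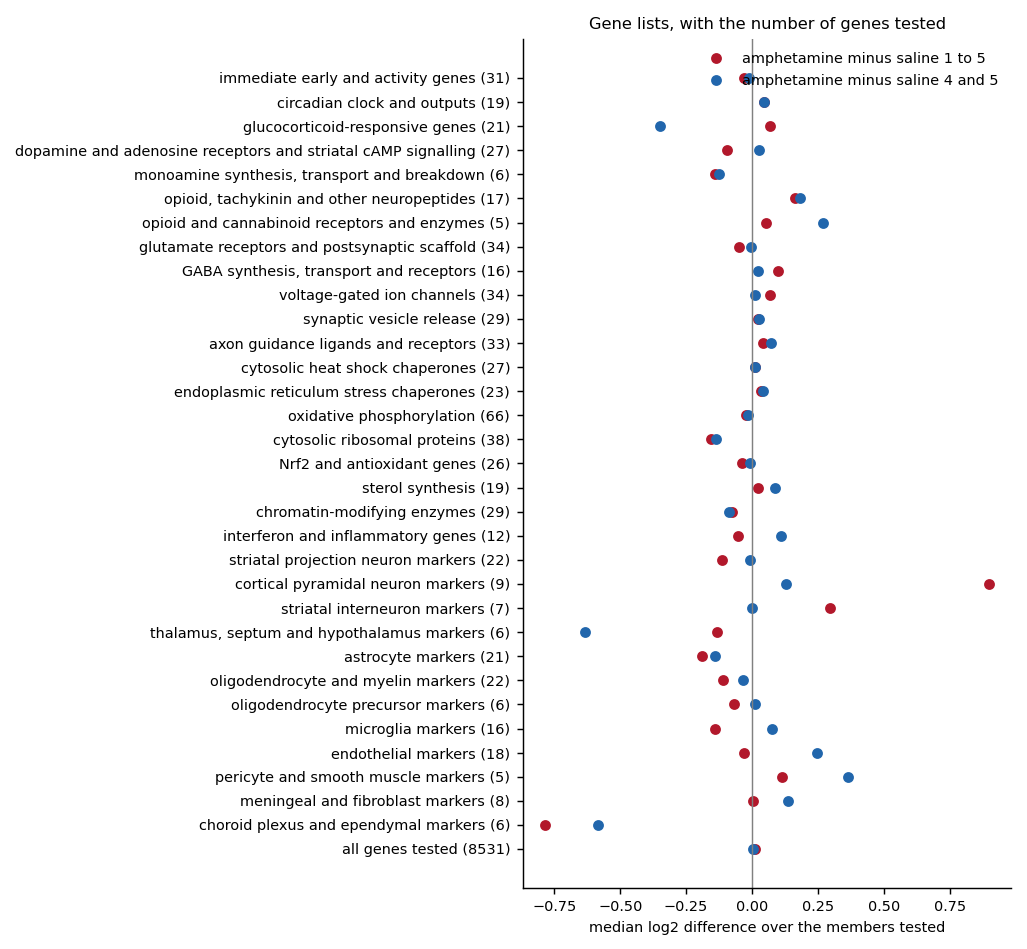
Median log2 difference of each gene list with at least 5 members tested, for amphetamine minus saline 1 to 5 and amphetamine minus saline 4 and 5, with the number of genes tested in brackets. All genes tested are at the bottom, with medians of 0.01. Cortical markers, thalamus, septum and hypothalamus markers and glucocorticoid-responsive genes have the largest gaps between the comparisons, and choroid plexus and ependymal markers lie below 0 in both.

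Amphetamine was set against the other stimulants at matched conditioning dose. Against methylphenidate at 5 mg/kg, 0 of 8531 genes passed (0%), and the smallest adjusted p was 0.523. An unadjusted p under 0.05 was met by 408 genes, where chance alone gives about 5% of those tested. The infused doses are not matched, since methylphenidate was infused at 0.25 mg. Besides Hs3st2, the smallest p values were those of Tuba8, a tubulin gene (8.10 to 8.74 after amphetamine, 7.17 to 7.71 after methylphenidate, 0.87 ± 0.19), and Alg11 (9.10 to 9.53 and 8.15 to 8.72, 0.86 ± 0.21). In the other direction stood Tekt1, a tektin of cilia (7.72 to 8.20 after amphetamine, 8.55 to 8.85 after methylphenidate, -0.82 ± 0.22), Arhgap6 (9.52 to 9.59 and 9.98 to 10.38, -0.57 ± 0.14) and Purg (-0.34 ± 0.09).

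Methamphetamine at 5 mg/kg was infused at the same 0.1 mg/kg, but its arrays lie in the batch of saline 1 to 3. Each stimulant was therefore taken against the saline of its own batch, and 2 genes differed between the stimulants (0.0234%), or 0 without any 1 of amphetamine 2 or 3, methamphetamine 1 or 2, or saline 1, 3 or 5. Hbb gave 3.16 ± 0.52 (adjusted p = 0.0212), with methamphetamine arrays at 12.82 to 14.03 and the low saline 4 and 5 given above. Fam13b gave -0.76 ± 0.14 (adjusted p = 0.044): it read 9.70 to 9.79 after amphetamine and 9.71 to 9.89 after methamphetamine, against 10.07 and 10.18 on saline 4 and 5 and 9.40 to 9.54 on saline 1 to 3. The stimulant groups had like levels, and the saline groups differed by 0.68 ± 0.10 (adjusted p = 0.00193). Fam13b no longer passed when any 1 of the amphetamine, methamphetamine or saline 1 to 3 arrays was left out. For amphetamine minus saline 4 and 5, another probe set of Fam13b gave -0.159 (unadjusted p = 0.343), where the one tested gave -0.394.

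The activity-induced nuclear receptor Nr4a3 and the factor Klf5 did not pass, and on both the methamphetamine arrays stood above all amphetamine 5 mg/kg and saline arrays. Nr4a3 read 7.71, 7.51 and 8.29 after amphetamine and 9.26, 9.51 and 10.05 after methamphetamine, against 8.95 and 8.47 on saline 4 and 5 and 7.76, 7.57 and 8.64 on saline 1 to 3 (-2.49 ± 0.51, adjusted p = 0.0849). For amphetamine minus saline, its other probe sets gave -1.535 and -0.565 against saline 1 to 5. Against saline 4 and 5 they gave -1.469 and -0.791. Klf5 read 9.14 to 9.28 after amphetamine and 9.85 to 10.36 after methamphetamine, against 9.42 to 9.52 and 8.87 to 9.04 on those saline arrays (-1.37 ± 0.28, adjusted p = 0.0849). Amphetamine at 1.25 mg/kg, in the batch of the methamphetamine arrays, was also high, at 8.54 to 9.87 for Nr4a3 and 9.73 to 10.33 for Klf5. Methylphenidate, in the batch of amphetamine at 5 mg/kg, read 7.57 to 7.96 and 9.04 to 9.25. The part of the array batch was not tested. The Acss2 difference was 0.785 ± 0.161 (adjusted p = 0.0849), and that of Dbp 0.84 ± 0.19 (adjusted p = 0.208).

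The dose comparison, amphetamine at 5 against 1.25 mg/kg with each against the saline of its batch, gave 2 genes (0.0234%), Acss2 and Scd. These are conditioning doses: both groups self-administered 0.1 mg/kg per infusion, and they had the same ages and injection schedule. Acss2, which makes acetyl-CoA from acetate, read 10.97, 10.94 and 10.75 after 5 mg/kg and 10.12, 10.45 and 10.17 after 1.25 mg/kg, against 10.77 and 10.84 on saline 4 and 5 and 11.12, 11.12 and 11.24 on saline 1 to 3. Its difference of differences was 0.99 ± 0.16 (adjusted p = 0.0152). Scd, the stearoyl-CoA desaturase, read 8.75, 8.64 and 8.49 after 5 mg/kg and 6.84, 7.22 and 7.36 after 1.25 mg/kg, against 8.49 to 8.51 on saline 4 and 5 and 8.21 to 8.69 on saline 1 to 3 (1.50 ± 0.26, adjusted p = 0.0155). Both were low after 1.25 mg/kg. They were also low after methamphetamine at 5 mg/kg in the same batch, at 10.30 to 10.61 for Acss2 and 7.64 to 7.77 for Scd. After amphetamine at 5 mg/kg they differed from saline 4 and 5 by 0.08 ± 0.12 and 0.12 ± 0.19. Without any 1 of amphetamine 5 mg/kg replicates 1 or 2, amphetamine 1.25 mg/kg replicate 1, or saline 3 or 5, 0 genes passed. Without saline 4, 1 gene passed, with a negative difference, and neither Acss2 nor Scd did. Without saline 2, only 1 of Acss2 and Scd still passed. Glucocorticoid-responsive genes had a median of -0.83 in the dose comparison, 20 of 21 being negative, and sterol synthesis genes 0.66 over 19 genes. Markers of microglia, oligodendrocytes and endothelium had medians of 0.49 each, and those of thalamus, septum and hypothalamus -0.65. None of these genes passed. Against methamphetamine at 5 mg/kg in the same way, medians were 0.565 for sterol, -0.494 for glucocorticoid and -0.689 for thalamus, septum and hypothalamus genes. There, microglia, oligodendrocytes and endothelium gave 0.183, 0.434 and 0.735. Saline 4 and 5 minus saline 1 to 3 gave medians of -0.230, -0.097 and -0.444 for these cell types. It gave -0.104 for sterol genes and 0.733 for thalamus, septum and hypothalamus markers. Against saline 4 and 5, the 5 mg/kg arrays had medians of -0.35 for the glucocorticoid list and 0.09 for the sterol list. Klf5 (-1.31 ± 0.28), Fam13b (-0.66 ± 0.14), Zdbf2 (-0.92 ± 0.20) and Hbb (2.51 ± 0.52) did not pass, at an adjusted p of 0.112 each.

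The amphetamine difference from saline 4 and 5 was also compared between striatum and prefrontal cortex. No gene passed the test between the regions (0 of 8531, 0%), and the smallest adjusted p was 0.999. An unadjusted p under 0.05 was met by 198 genes, where chance alone gives about 5% of those tested. The median standard error was 0.225, larger than in the comparisons within striatum, so this does not show that the regions responded alike. Cyp26b1 had the largest value on the higher side of the named genes, 1.05 ± 0.35, since its prefrontal amphetamine arrays (10.51 to 10.76) were not above prefrontal saline 4 and 5 (10.76 and 10.92). Erich2 gave -1.05 ± 0.25, Lypla2 -0.91 ± 0.24 and Dcx, a marker of young neurons, -0.89 ± 0.25, while Afg2a gave 0.77 ± 0.24 and Eftud2 0.60 ± 0.21. In striatum, Eftud2 read 9.82 to 9.96 on the amphetamine arrays, 9.96 on saline 4 and 9.05 on saline 5. Leaving out 1 array gave 0.15 to 1.05 for Eftud2. Arc was low in both regions, with prefrontal amphetamine arrays at 8.14, 7.79 and 8.47 against 9.63 and 9.16 on prefrontal saline 4 and 5. Its regional difference was 0.09 ± 0.54. Nr1d2 read 11.62 to 11.76 on the prefrontal amphetamine arrays, against 11.31 to 11.53 on prefrontal saline 1 to 5, and its regional difference was -0.05 ± 0.12.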

How the data were processed

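The deposited values are microarray signal intensity, 1 value per probe set and array, for 31099 probe sets, made with MAS5 per the submitters' processing notes. The trimmed mean of the deposited intensity was 500.1 to 500.2 on every array, so total RNA differences cannot be seen, and detection calls were not used. The number of arrays limits the precision.

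Intensities under 1 were set to 1, and log2 of the deposited intensity was taken. Probe sets with 1 gene symbol in the platform annotation (20832) were kept, 1 per gene by the highest mean over the 29 striatal arrays of the fit, and the lowest 40% of genes were left out, which left 8531. limma 3.58.1 in R 4.3.3 (lmFit, contrasts, eBayes with trend) was fitted with 1 mean per group, and Benjamini-Hochberg adjustment ran over all 8531 genes at a threshold of 0.05. The 3 striatal methamphetamine 1.25 mg/kg arrays were left out, since 1 of them has a cortical profile (striatal minus cortical markers 0.16). For the batch comparisons the naive saline arrays were split at the gap in the hybridisation control BioB, and the regional comparison used 58 arrays of both regions. The label field that names an array's short code gives striatal saline 1 as prefrontal, while its title and tissue say striatum, as its profile does. The script was tested on simulated data.

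Named genes were, for amphetamine minus saline 1 to 5, up to 12 each way with the largest change among those that passed without overlap. Against saline 4 and 5 they were up to 10 each way, or 5 by smallest p, and in each other comparison up to 5, or 3 by smallest p. Genes of a list that passed and a fixed set of 19 genes were also named. The members, lists and rules were chosen with earlier results of these data known. Same-numbered amphetamine and saline arrays did not deviate together (correlations 0.045, -0.026 and 0.071), nor did amphetamine and methylphenidate arrays (-0.055, -0.033 and -0.271). Striatal and prefrontal amphetamine arrays of 1 number did (0.192, 0.141 and 0.169). The regional values and errors given come from the fit without pairs, and the pairing entered as an alternative. Alternatives tried were all probe sets, quantile normalization, an offset of 22.8 before log2, eBayes without trend, a filter of 60% or none, other sets of arrays, the replicate block, array batch as a term and leaving out each array.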

Additional observations from a re-analysis of the deposited data

Results flagged for a closer look

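Among 60 genes tested for a saline array far from the other 4, 5 were found, and chance gives about 1 in 20, or 5%. Fos on saline 1 was 8.89, below 10.05 to 10.45 on the others, and this array alone made the Fos groups overlap. Egr1 on saline 3 was 13.08, above 12.77 to 12.86. Hs3st2 on saline 3 was 6.41, below 7.58 to 7.98. Arhgap6 and Eftud2 were low on saline 5, the first at 9.5 against a highest of 10.11 and the second at 9.05 against 9.96 to 10.31.

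Tests of a difference between effects singled out 4 values. Between amphetamine and methamphetamine at 5 mg/kg, the effects differed by 3.16 for Hbb and -0.76 for Fam13b. Between amphetamine at 5 and 1.25 mg/kg they differed by 0.99 for Acss2 and 1.50 for Scd. All 4 use saline 4 and 5 as 1 of their references, and Hbb on those arrays was 10.54 and 9.48, against 12.43 to 13.57 on saline 1 to 3.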

How the results depend on the processing

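Against saline 1 to 5, 0 genes passed without any 1 of amphetamine 1, 2 or 3 or saline 1, 2 or 3, 133 without saline 4 and 281 without saline 5, a range of 0 to 281; the 133 and the 281 each held all 22. Other settings gave 14 genes with log2 of the signal plus 22.8, 7 with a filter of 60%, 55 with all probe sets, 0 with all striatal arrays, 3 with naive arrays only, 0 with the compared groups only, 1 (Hbb) with array batch as a term and, chosen after seeing the data, 1001 against saline 1 to 3. With the replicate block the count was 983, which uses saline 1 to 3 alone, since saline 4 and 5 have no same-numbered partner. The replicate block gave 0 genes for the methylphenidate and regional comparisons, so it changed no other call, and it could not be fitted for the comparison with saline 4 and 5, methamphetamine or 1.25 mg/kg, which share no numbers.

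Against saline 4 and 5, leaving out arrays gave 0 to 3 genes (0 without saline 5, 3 without saline 4), and all probe sets gave 7. For methamphetamine, leaving out arrays gave 0 to 2 genes, no filter gave 1, all probe sets 11, all striatal arrays 1, naive arrays only 6 and the compared groups only 0. For 1.25 mg/kg, leaving out arrays gave 0 to 2, a filter of 60% gave 1, all probe sets 4, all striatal arrays 0, naive arrays only 9 and the compared groups only 34. Between regions, leaving out arrays gave 0 to 4. For saline 4 and 5 minus saline 1 to 3, leaving out arrays gave 6 to 171 genes, with 6 without saline 5, and all probe sets gave 717, all striatal arrays 217 and the compared groups only 547.

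Signs turned only in genes that had not passed. Against saline 1 to 5, Penk was 0.07 with quantile normalization. Array batch as a term gave -0.28 for Cartpt, 0.088 for Drd2, -0.11 for Fkbp5, 0.053 for Penk and 0.028 for Ppp1r1b. The replicate block, and saline 1 to 3 alone, each gave -0.007 for Adora2a and -0.032 for Dbp. Leaving out 1 array gave -0.024 to 0.074 for Adora2a. Against saline 4 and 5, leaving out 1 array gave -0.047 to 0.182 for Adora2a, -0.58 to 0.018 for Cartpt, -0.36 to 0.13 for Fkbp5 and -0.11 to 0.17 for Ppp1r1b. The causes were not tested.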
